A study of Mus musculus with 4 samples.

Results

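The tripartite motif (TRIM) family of ubiquitin ligases was followed in 4 mouse liver libraries. Members were all genes of the deposited table whose symbol is Trim followed by a digit, which gave 69 of the 56953 gene rows. The count table holds 2 control libraries and 2 deletion libraries, all from mice 2 months old on a normal diet. Both groups carried loxP-flanked alleles of Ubc13 (Ubc13 flox/flox). The controls had no albumin-Cre transgene (Alb negative, called WT in the genotype label). The deletion group carried it (Alb positive), and that transgene removes flanked DNA in cells that express albumin, mainly hepatocytes, while other liver cells keep the gene. The labels do not say whether replicates 1 and 2 of a group came from separate animals, so p-values measure only the spread between these samples.

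TRIM proteins carry a RING domain, B-boxes and a coiled coil, followed by a variable end that selects the substrate. The RING recruits a charged E2 enzyme, and several members use Ubc13, the protein of Ube2n, together with a Ube2v partner to build K63-linked ubiquitin chains. Such chains serve as scaffolds in RIG-I, MDA5 and NF-kB signalling, and many TRIM genes are themselves induced by interferon. The comparison therefore asks how transcripts of these ligases stood when one of their E2 enzymes was lost.

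Library totals ranged from 16270424 to 17800138 counts. Levels below are CPM, counts scaled to a common library size and adjusted by TMM. The 3' kit reads a single stretch per transcript, so CPM was not divided by length. Ube2n, the targeted gene, had 669 and 654 counts in control and 107 and 116 in deletion livers (log2 fold change -2.86 ± 0.16 SE, edgeR adjusted p = 0.00188). The labels do not name the flanked exons, so the counted stretch may lie outside the deleted part. The libraries were not matched for sex-linked RNA: Xist had 9 and 2 counts in the controls and 9590 and 3896 in deletion replicates 1 and 2, and Y-linked RNA in the deletion libraries was 0 and 0.613 of the control mean. Deletion replicate 1 thus had no Y-linked counts, and every difference given here runs along with this one. Deletion replicate 2 had from 206 to 719 counts of the Y-linked genes beside its Xist counts. The deletion libraries were therefore not 2 readings of the same RNA. Whether replicate 2 mixes RNA of males and females was not tested. The 6 hepatocyte markers summed to 147105 and 141347 CPM in control and 62099 and 58163 CPM in deletion livers. Alb carried these sums (119049 and 114960 against 45310 and 42886 CPM) and was not called (edgeR adjusted p = 0.0612). Of the 6, 1 was called lower (Ttr), where 2.16% of all genes were, and the log2 fold changes ran from -1.59 to -0.14 (Apob). Of 4 muscle markers Ckm and Myh4 had 0 counts in every library.

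Trim transcripts together were higher in both deletion libraries. They summed to 751 and 715 CPM in control and 889 and 920 CPM in deletion livers, and without Trim25 to 656 and 642 against 727 and 737 CPM. These sums do not overlap between groups, and they were not tested. In bulk liver, a change in the number of cells of a type and a change in RNA per cell cannot be told apart. Trim25 made up 12.7% (exact 95% interval 12.1 to 13.3) and 10.2% (9.64 to 10.8) of all Trim counts in the controls, and 18.3% (17.7 to 18.9) and 19.9% (19.3 to 20.5) in the deletion libraries. Of the 69 members, 39 passed the filter on low counts and were tested, 18 had some counts but fell below it, and 12 had 0 counts in every library.

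In the controls, the order of levels was led by Trim25 (84.4 CPM) and Trim28 (82.1 CPM), whose ranges overlap, then Trim44 (54.4), Trim41 (52.9), Trim24 (48.1) and Trim26 (43.6 CPM). Trim44 (59.2 and 49.7) and Trim41 (54.3 and 51.5) overlap, Trim24 (48.5 and 47.7) lies below both, and Trim26 (51.8 and 35.4 CPM) overlaps each of these 3. In the deletion libraries, Trim25 stood alone at 173 ± 14 CPM (SD, n = 2), and Trim28 followed at 81.2 ± 5.6 CPM. At the low end, Trim36 and Trim30b had control means of 0.219 and 0.268 CPM, near the 0.154 to 0.206 CPM that a count of 3 is worth.

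**Figure D1:**
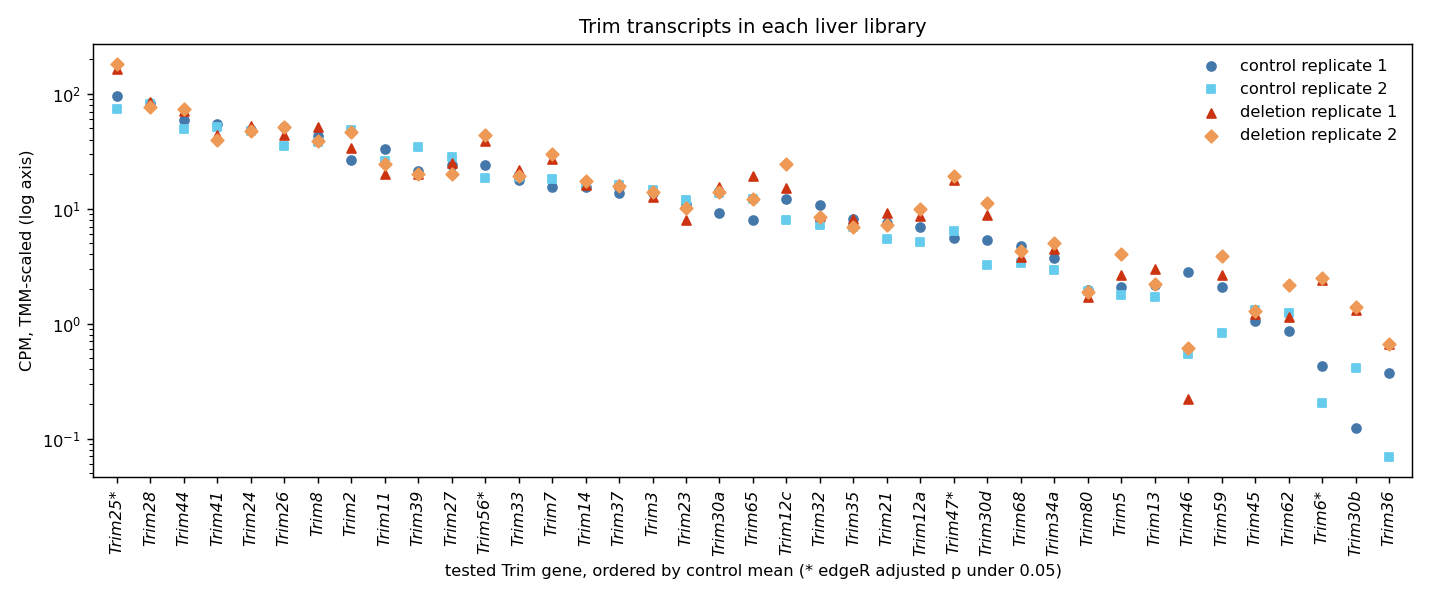
CPM scaled by TMM (log axis) of the 39 tested Trim genes in each of the 4 libraries, ordered by control mean; an asterisk marks an edgeR adjusted p under 0.05. Both deletion libraries lie above both controls for Trim25, Trim56, Trim47 and Trim6, while the 4 points of Trim28 lie between 77.2 and 85.1 CPM.

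Of the 39 tested members, 4 rose and 0 fell at an edgeR adjusted p under 0.05. Among all 14600 tested genes, 4.41% were called higher and 2.16% lower, or 6.57% in either direction, so the members called higher were 10.3% against 4.41%. Nor was any member lower by the unadjusted p under 0.05 (0, where 10.5% of all genes were) or by DESeq2 (0). At an unadjusted p under 0.05, 9 members were higher, or 23.1%, against 14% of all genes. Among the tested members, Trim6, Trim30b and Trim36 passed the filter only through the deletion libraries, where they were high, so counts and medians over the tested members are descriptions. The median log2 fold change was 0.17 over the tested members and -0.0036 over all tested genes. Both deletion libraries lay above both controls in 18 members (46.2%, against 28.7% of all genes) and below them in 5 (12.8%, against 27.3%).

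The number of members called depended on single libraries and on the method. Without deletion replicate 1, 1 member was higher (2.2% of all genes higher, 1.04% lower), and without deletion replicate 2, 0 were (1.59% and 0.654%). Without control replicate 1, 7 were higher and 1 lower (7.08% and 4.03% of genes), and the same numbers held without control replicate 2 (7.63% and 5.78%). In each of these fits the lone library of a group is assumed to vary like the other group. DESeq2 gave 6 higher (6.25% of genes higher, 3.99% lower), RLE scaling 4 (4.38% and 2.2%), library sizes alone 8 (10.7% and 1.38%), and no filter 8 higher and 1 lower (6.41% and 4.39%). A replicate term gave 1 higher (1.81% and 0.863%), and the crossed term, added after seeing the data, gave 7 (6.36% and 3.0%).

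Trim25, a ligase that attaches ubiquitin to the viral RNA sensor RIG-I, had 1551 and 1064 counts in control and 2963 and 3551 in deletion livers, or 95.7 and 73.1 against 163 and 183 CPM. Both deletion libraries lay above both controls. The log2 fold change was 1.03 ± 0.19 (2.05-fold, edgeR adjusted p = 0.0314). The gene (ENSMUSG00000000275) spans 88999376 to 89020293 of chromosome 11 (plus strand), and exon 9 of its longest coding transcript, from 89016195 to 89020293, is the last, where a 3' library reads. The call was lost without deletion replicate 1 (adjusted p = 0.0711) or 2 (0.143).

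Trim56, which promotes antiviral signalling through STING and lacks a SPRY domain, was at 24.1 and 18.3 CPM in control and 39 and 43.7 CPM in deletion livers. The groups did not overlap. Its log2 fold change of 0.96 ± 0.19 (1.95-fold, adjusted p = 0.0372) was close to that of Trim25. It spans 137105644 to 137116209 of chromosome 5 (minus strand), with its last exon, exon 3, from 137105644 to 137114661. Without deletion replicate 1 the adjusted p was 0.0811, and without deletion replicate 2 it was 0.175.

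Trim6, known for working with the E2 enzyme Ube2k in interferon signalling, had the largest fold of the called members from the fewest counts, with 7 and 3 in control and 44 and 49 in deletion livers. In CPM these were 0.432 and 0.206 against 2.42 and 2.52. Both deletion libraries were far above both controls, and the controls lay near the floor. The log2 fold change was 2.91 ± 0.50 (7.5-fold, adjusted p = 0.0274), and the call was lost without deletion replicate 1 (0.116) or 2 (0.173). Trim6 spans 104218793 to 104235152 of chromosome 7 (plus strand), and its last exon, exon 8, runs from 104232367 to 104235152.

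Trim47, a SPRY-domain ligase, had 90 and 93 counts in control and 321 and 376 in deletion livers, or 5.55 and 6.39 against 17.6 and 19.3 CPM. The replicates of each group lay close together. Its log2 fold change was 1.63 ± 0.20 (3.10-fold, adjusted p = 0.0103), the lowest adjusted p among the members. Trim47 passed without deletion replicate 1 (0.0337) and missed without deletion replicate 2 (0.0568). The gene occupies chromosome 11 from 116105752 to 116127210 on the minus strand, and its last exon, exon 6, spans 116105752 to 116106641. Its upstream part overlaps Trim65, a ligase for the RNA sensor MDA5, on the same strand. Trim65 was at 7.96 and 12.2 CPM in control and 19.2 and 12.2 CPM in deletion livers (0.64 ± 0.31, adjusted p = 0.269). Deletion replicate 2 and control replicate 2 were nearly level there. None of the 75-base words in the last 500 bases of the Trim47 or Trim65 transcript occurred in transcripts of another gene.

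With the share of Y-linked RNA as a covariate, 0 members were called by edgeR, and 0.425% of all genes were called higher and 0.0205% lower. The log2 fold changes in that fit were 1.17 ± 0.37 for Trim25, 1.10 ± 0.38 for Trim56, 2.92 ± 0.94 for Trim6 and 1.80 ± 0.41 for Trim47 (adjusted p = 0.324, 0.356, 0.330 and 0.183). The estimates were as large as without the covariate, and their errors were larger. That fit keeps a single residual degree of freedom, and its slope comes mainly from the deletion pair.

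**Figure D2:**
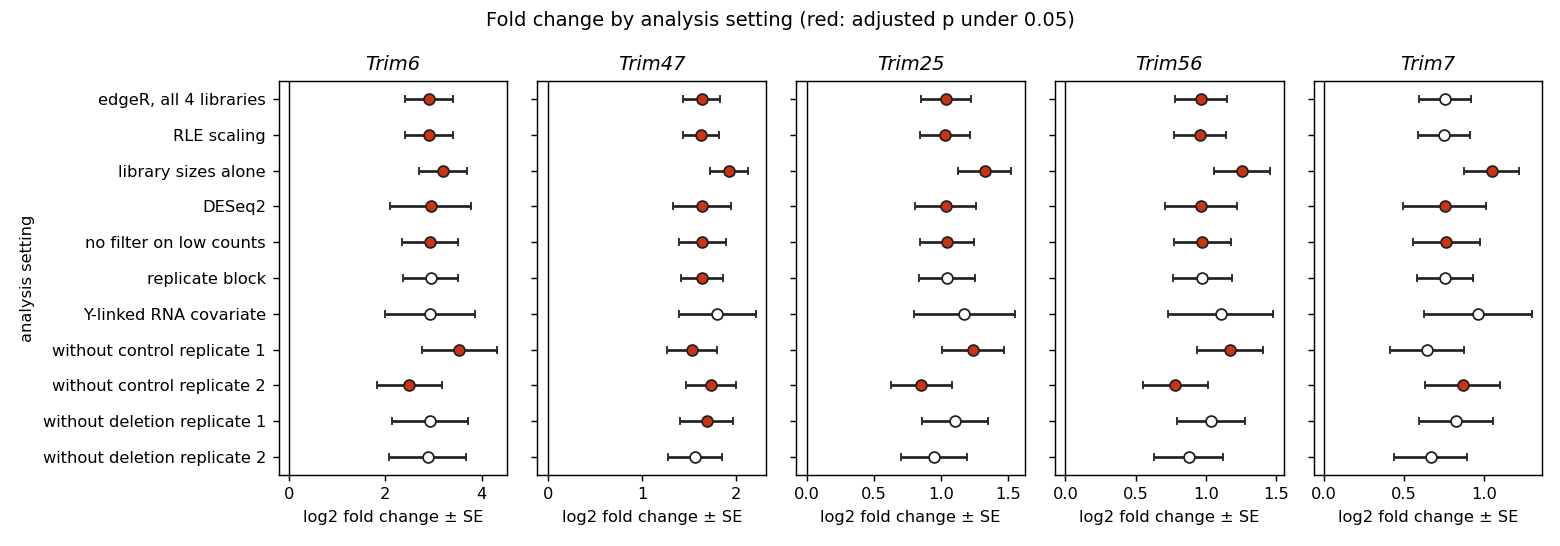
Log2 fold change with SE (x axes, separate scale per gene) of the 4 called members and Trim7 under each analysis setting (y axis); red points have an adjusted p under 0.05. The sign was positive in every setting drawn. The calls of Trim6, Trim25 and Trim56 were lost without either deletion library and with the replicate block, and that of Trim47 without deletion replicate 2. With the Y-linked covariate all 4 calls were lost.

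Several further differences did not pass, of which those outside the chromosome 7 genes come first. Trim7, a SPRY protein that binds the glycogen primer glycogenin, was at 15.6 and 18.1 CPM in control and 26.8 and 30.1 CPM in deletion livers (0.75 ± 0.16, edgeR adjusted p = 0.0510). Its groups did not overlap, and it passed with DESeq2 (0.0380), without a filter (0.00392), with library sizes alone (0.0187) and without control replicate 2 (0.0216). On the opposite strand it overlaps Gm16170, which had 30, 27, 43 and 85 counts, and Gm12184, which had 36, 39, 36 and 34, and the strand setting of the counting is not given. Trim59, a transmembrane member, was at 2.10 and 0.824 against 2.64 and 3.91 CPM (1.15 ± 0.51, adjusted p = 0.234), and Trim62 at 0.864 and 1.24 against 1.15 and 2.16 CPM (0.66 ± 0.49, 0.468), where the groups overlap.

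Among members known to be induced by interferon, Trim25 and Trim56 rose. Of 15 listed, 12 were tested, 2 rose, where 4.41% of all genes were called higher, 0 fell and 10 did not pass. Below the filter, Trim34b had 2 and 3 counts in control and 0 and 0 in deletion livers, Trim30c had 7 and 4 against 8 and 5, and Trim38 had 0. By the unadjusted p under 0.05, 0 were lower, and by DESeq2 likewise 0. The 12 tested, of which Trim30b passed the filter only through its deletion counts, had positive log2 fold changes, where 49.6% of all tested genes did, and in 9 both deletion libraries exceeded both controls, where 28.7% of all genes did so. The median was 0.70, against 0.09 over the 27 tested members outside the list. The difference between the lists was not tested, and the list was written with results of these data known. Trim14, a RING-less adaptor of MAVS, was at 15.5 and 16.3 against 16.2 and 17.4 CPM (0.08 ± 0.16, edgeR adjusted p = 0.821). It overlaps Nans on the opposite strand, a gene with 2098 counts over the 4 libraries, so its values are uncertain. Trim26, which acts on IRF3 and TAB1, was at 51.8 and 35.4 against 44.2 and 51.8 CPM (0.14 ± 0.22, 0.757). Both overlap between groups, as does the cytosolic antibody receptor Trim21, with 7.53 and 5.43 against 9.23 and 7.15 CPM (0.34 ± 0.28, 0.521).

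A block of 11 members lies side by side on chromosome 7, from the start of Trim6 at 104218793 to the end of the pseudogene Trim30e-ps1 at 104535361 (neighbours under 100 kb apart). It holds the Trim5, Trim12, Trim30 and Trim34 genes, relatives of the retrovirus restriction factor TRIM5. Of the 11, 8 passed the filter on low counts. Trim6 and Trim30b passed it only through the deletion libraries, where they were high, so what follows for the 8 is a description and supports nothing. Their CPM was higher in both deletion libraries than in both controls, as it was for 28.7% of all tested genes. Of the genes below the filter, Trim34b (2, 3, 0 and 0 counts) and Trim30c (7, 4, 8 and 5) did not share this order. Trim6 was called, where 4.41% of all genes were called higher, and 4 of the 8 were higher at an unadjusted p under 0.05, where 14% of all genes were. The genes of the block are related copies, so they are not independent observations.

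Within the block, Trim30b had 2 and 6 counts in control and 24 and 27 in deletion livers (2.34 ± 0.63, adjusted p = 0.0850). Trim30d had 5.31 and 3.23 against 8.74 and 11.3 CPM (1.22 ± 0.32, 0.0806). Both missed the threshold with groups apart. Trim30d passed with DESeq2 (0.0317) and without control replicate 1 (0.00667), and Trim30b without control replicate 2 (0.0338). Trim12c had 12.2 and 7.97 against 15.1 and 24.4 CPM (0.97 ± 0.31, 0.127). It passed in edgeR without a filter (0.000409) and missed with DESeq2 (0.0694). With 1 library left out, Trim12c ranged from 0.58 to 1.31. Its near copy Trim12a had 6.91 and 5.08 against 8.57 and 10.04 CPM (0.63 ± 0.26, 0.206). For both Trim12 genes, deletion replicate 2 was the highest library. Trim5 was at 2.10 and 1.79 against 2.64 and 4.01 CPM (0.77 ± 0.37, 0.265), and Trim34a at 3.76 and 2.95 against 4.45 and 5.04 CPM (0.50 ± 0.29, 0.360). Trim30a, which in mouse restrains NF-kB by acting on TAB2 and TAB3, had the smallest difference of the block, at 9.13 and 13.8 against 15.4 and 14.05 CPM (0.36 ± 0.24, 0.418). Over the last 500 bases of their longest coding transcripts, none of these 8 genes shared a 75-base word with the transcripts of another gene, whereas 35.2% of the words of Trim34b occurred in Trim34a.

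**Figure D3:**
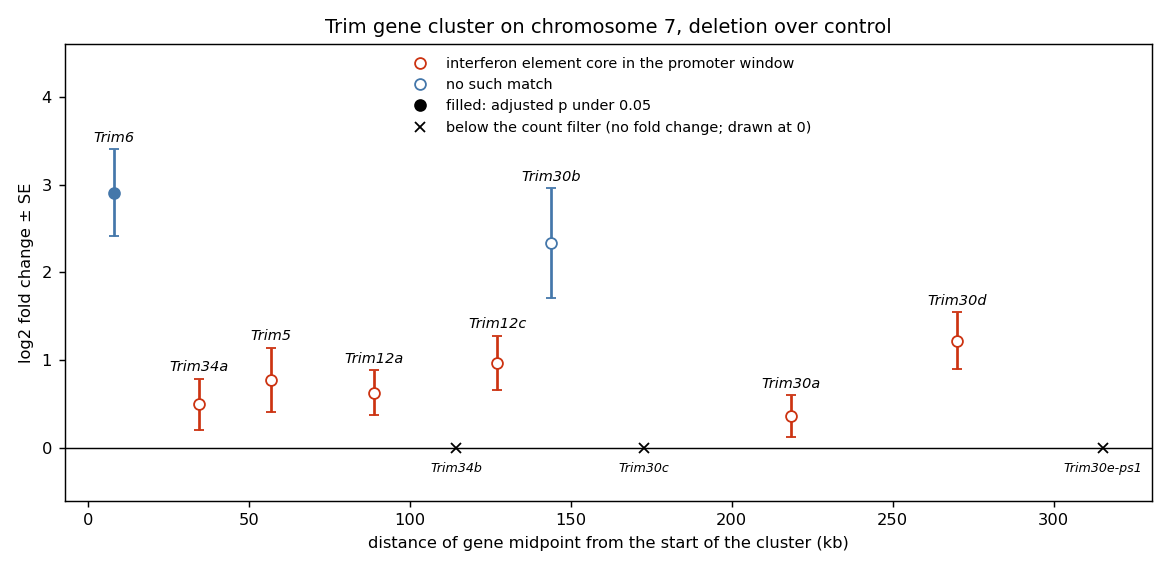
Log2 fold change with SE (y axis) of the Trim genes on chromosome 7 against the distance of each gene's midpoint from the start of the block in kb (x axis); filled points have an adjusted p under 0.05 and red marks a promoter window that holds the interferon element core. All 8 tested genes lie above 0, from 0.36 for Trim30a to 2.91 for Trim6, and the crosses are untested genes placed at 0.

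Promoter windows of 300 bases (250 before to 50 after the RefSeq start, GRCm38.p6) were found for 53 members, 67 windows in all, and for 31 of the 39 tested. They were searched on both strands for the core of the interferon-stimulated response element (GAAA, 2 bases of any kind, GAAA; on the other strand TTTC, 2 bases, TTTC), which is bound by interferon regulatory factors. The core occurred in 3.44% of all 32851 promoter windows and in 14.9% of the Trim windows. By gene, 9 of the 31 tested members with a window held it (29%), against 3.84% of tested genes. The 9 were Trim2, Trim5, Trim12a, Trim12c, Trim21, Trim26, Trim30a, Trim30d and Trim34a, of which 6 belong to the block on chromosome 7. The windows of the 4 called members, Trim25, Trim56, Trim6 and Trim47, held no match. The median log2 fold change was 0.50 over the 9 with a match, 0.10 over 22 tested members with a window and none, and 0.12 over 8 without a window. These differences were not tested. The 6 genes of the block are related copies, so neither the shares nor the medians rest on independent genes. Outside the block, the members with a match were at 0.09 (Trim2), 0.14 (Trim26) and 0.34 (Trim21). A match is a string of letters and not a shown binding site. The NF-kB string (GGG, 2 bases of any kind, TTTCC), searched on both strands, occurred in 0 of the 67 Trim windows and 1.63% of all windows. The string TTC, 3 bases of any kind, GAA was also searched. It occurred in 10.4% of the Trim windows and 8.30% of all windows, and by gene in 6.45% of the tested members against 8.45% of tested genes.

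The cores of the chromosome 7 genes are shown because they repeat between neighbours. Each is a 30-base stretch on the strand of its gene, with the core in capitals.
Trim34a: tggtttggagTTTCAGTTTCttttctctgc
Trim5: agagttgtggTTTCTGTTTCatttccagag
Trim12a: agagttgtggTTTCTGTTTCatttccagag
Trim12c: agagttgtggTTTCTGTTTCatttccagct
Trim30a: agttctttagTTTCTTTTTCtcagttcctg
Trim30d: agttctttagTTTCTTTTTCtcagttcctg
Trim21: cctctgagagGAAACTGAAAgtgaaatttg
The stretches lie at chr7:104244457-104244486 (Trim34a, plus strand) and, on the minus strand, at chr7:104288136-104288165 (Trim5), chr7:104315466-104315495 (Trim12a), chr7:104353359-104353388 (Trim12c), chr7:104465210-104465239 (Trim30a), chr7:104507871-104507900 (Trim30d) and chr7:102565450-102565479 (Trim21). The Trim5 and Trim12a stretches are identical over 30 bases and the Trim12c stretch differs from them at 2. The Trim30a and Trim30d stretches are identical over 30 bases. Trim30d and Trim30a share this stretch while their log2 fold changes were 1.22 ± 0.32 and 0.36 ± 0.24. Trim30a also has another core, not printed, at chr7:104446104-104446133, whose stretch matches the printed one at 26 of 30 bases. Trim21 lies outside the block, on the same chromosome. A further core of Trim21, with its stretch at chr7:102565444-102565473, overlaps the one in capitals.

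Members reported to build K63-linked chains, the kind Ubc13 makes, included Trim25, Trim56, Trim65, Trim21 and Trim5, described above. Of 10 listed, 8 were tested, 2 rose (Trim25 and Trim56, both also in the interferon list), where 4.41% of all genes were called higher, 0 fell and 6 did not pass, with 0 lower by the unadjusted p under 0.05 and 0 by DESeq2. Their median was 0.49, against 0.14 over the 31 other tested members, a difference that was not tested. Trim5 (0.77) and Trim21 (0.34) are in the interferon list as well. The tested K63 members outside that list were Trim65 (0.64), Trim8 (0.16), Trim32 (-0.08) and Trim23 (-0.34). The medians thus do not separate the K63 list from the interferon list. Trim8, which acts on TAK1, was at 42.6 and 37.9 against 51.1 and 39.2 CPM (0.16 ± 0.18, edgeR adjusted p = 0.641). Trim23, which carries an ARF domain, was at 11.04 and 11.95 against 8.02 and 10.2 CPM (-0.34 ± 0.22, 0.407). Trim32 was at 10.9 and 7.28 against 8.68 and 8.49 CPM (-0.08 ± 0.26, 0.891). Of these 3, only Trim23 had both deletion libraries on one side of the controls. The muscle ligase Trim63 had 0, 0, 1 and 0 counts, and Trim31 had 0 in every library.

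Grouped by the domain at the end of the protein, the SPRY members, 22 of the 39 tested, held 3 of the 4 calls. Of the tested SPRY members 13.6% were called higher, against 10.3% of all tested Trim members. Trim6 and Trim30b among them passed the filter on low counts only through the deletion libraries, so the counts and median here are descriptions. Of 38 SPRY members 22 were tested, 3 rose, where 4.41% of all genes were called higher, 0 fell and 19 did not pass, with a median log2 fold change of 0.56 and a range from -0.48 to 2.91. At an unadjusted p under 0.05, 7 of them were higher, where 14% of all genes were, and 0 lower, and DESeq2 called 0 lower. The SPRY members with the most negative values were Trim39 (21.4 and 34.2 against 19.9 and 20.0 CPM, -0.48 ± 0.24, edgeR adjusted p = 0.286), Trim11 (-0.41 ± 0.19, 0.261) and Trim41 (-0.34 ± 0.14, 0.220). Trim39 was called lower without control replicate 1. Trim41 overlaps Rack1 on the opposite strand, a gene with 20894 counts over the 4 libraries, so its values are uncertain.

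The PHD-bromodomain members, which are transcriptional cofactors, gave log2 fold changes from -0.02 to 0.17, and 0 of the 3 tested passed with edgeR (0 by the unadjusted p under 0.05 and 0 by DESeq2). Trim28, the corepressor of KRAB zinc finger proteins, was at 83.0 and 81.3 CPM in control and 85.1 and 77.2 CPM in deletion livers (-0.02 ± 0.14, adjusted p = 0.961). It overlaps Zbtb45 on the opposite strand (729 counts over the 4 libraries). Trim24, a nuclear receptor cofactor that restrains liver tumours in mice, had 48.5 and 47.7 against 52.7 and 47.7 CPM (0.06 ± 0.14, 0.845). Trim33, a SMAD cofactor, had 17.8 and 18.8 against 21.9 and 19.2 CPM (0.17 ± 0.16, 0.564). The controls of Trim28 and Trim24 overlap the deletion libraries. Of the NHL-repeat members 3 were tested and 0 passed, with log2 fold changes from -0.09 to 0.09 (by the unadjusted p under 0.05 it was 0, by DESeq2 0). Among these, Trim2 varied within groups, at 26.8 and 48.6 CPM in control and 33.7 and 46.4 CPM in deletion livers. The RING-less Trim44, the third most abundant member, had 59.2 and 49.7 against 71.2 and 74.1 CPM (0.42 ± 0.16, adjusted p = 0.174), with groups apart.

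**Figure D4:**
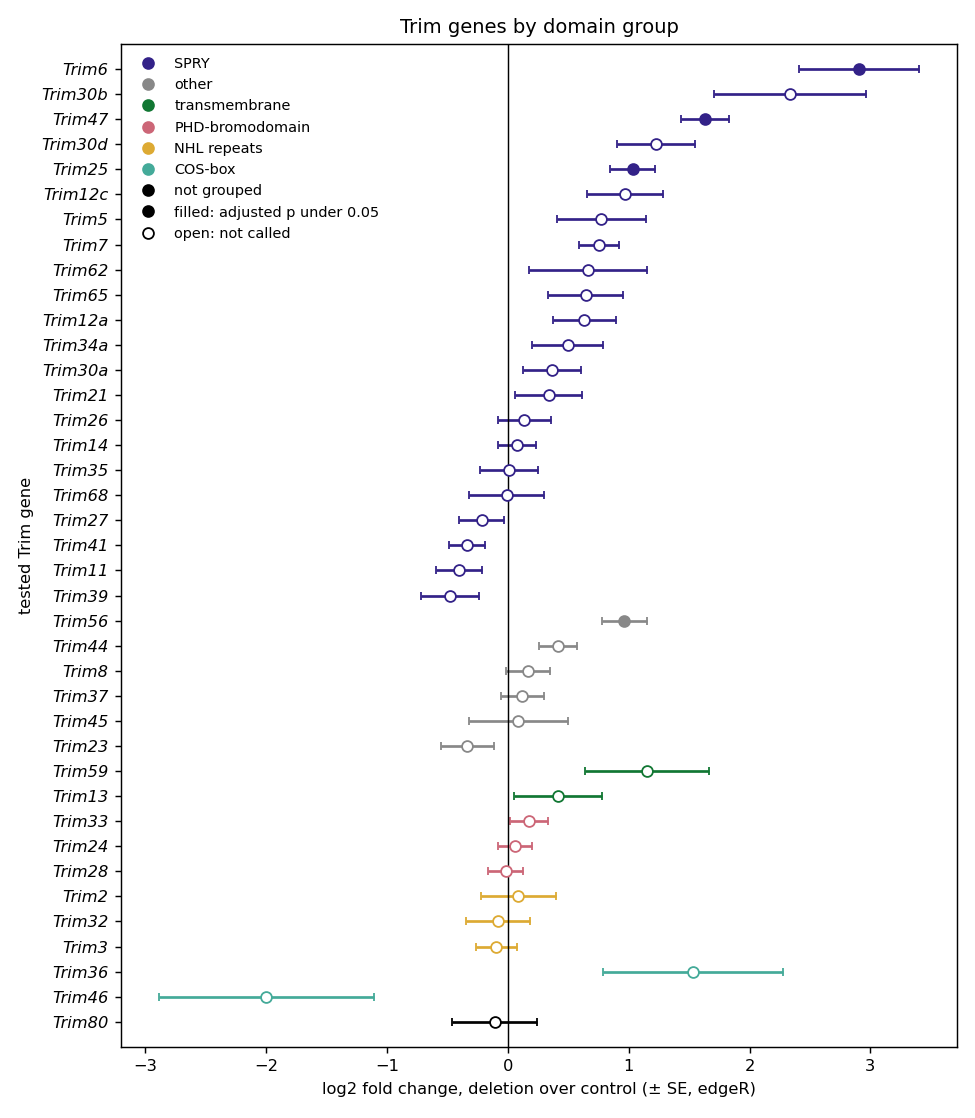
Log2 fold change with SE from edgeR (x axis) of the 39 tested Trim genes (y axis), coloured by domain group; filled points have an adjusted p under 0.05. The called genes are Trim6, Trim47 and Trim25 among the SPRY members and Trim56 in the group without such a domain, and the PHD-bromodomain and NHL-repeat members lie between -0.09 and 0.17.

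The 2 tested COS-box members, which bind microtubules, pointed in opposite directions. Trim46 had 46 and 8 counts in control and 4 and 12 in deletion livers (-2.0 ± 0.89, adjusted p = 0.234). Control replicate 1 alone was high, and the groups overlap. The same library stood out for Mid1, a relative of this class under another symbol, with 303 and 7 counts in control and 29 and 87 in deletion livers, and for the bile duct keratin Krt19 (635, 47, 53 and 77 counts) and the smooth muscle actin Acta2 (557, 71, 65 and 77 counts). The part of bile duct or vessel tissue in the Trim46 values was not tested. Trim46 also overlaps Krtcap2 on the opposite strand (3571 counts over the 4 libraries). Trim36 had 6 and 1 counts in control and 12 and 13 in deletion livers (1.53 ± 0.75, adjusted p = 0.276).

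Other members of the family carry older names. Pml, the organizer of nuclear bodies, was at 22.1 and 20.5 CPM in control and 27.9 and 30.9 CPM in deletion livers (0.46 ± 0.15, edgeR adjusted p = 0.130). Mefv, the inflammasome sensor pyrin of myeloid cells, had 1 and 4 against 19 and 15 counts (2.42 ± 0.73, 0.111), and Mid2 was at 0.49 ± 0.25 (0.288). Of the 5 such genes 4 were tested and 0 passed. At an unadjusted p under 0.05, 2 were higher and 0 lower, where 14% and 10.5% of all genes were. Pml, Mefv and Mid2 had both deletion libraries above both controls, where 28.7% of all genes did so. Mefv passed the filter on low counts only through the deletion libraries, where it was high, so these counts are descriptions.

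Partners of TRIM ligases in RNA sensing were also read from a list. Of 32 listed partners 31 were tested, 7 rose and 1 fell, where 4.41% and 2.16% of all genes did, and 23 did not pass. The median log2 fold change was 0.47. The RNA sensors Ddx58 (RIG-I) and Ifih1 (MDA5), targets of Trim25 and Trim65, rose by 1.13 ± 0.18 and 0.89 ± 0.15 on the log2 scale (edgeR adjusted p = 0.0236 and 0.0268). Irf7, the interferon regulatory factor, rose by 1.95 ± 0.21 (edgeR adjusted p = 0.00814). Zc3hav1, a zinc finger antiviral protein that works with Trim25, rose by 0.85 ± 0.16 (0.0322), the modifier Isg15 by 0.97 ± 0.20 (0.0422) and Traf3 by 1.24 ± 0.26 (0.0446). The member that fell was Ube2n. The list was written with results of these data known, and several of its genes are interferon targets.

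The other E2 enzymes did not pass. Ube2v2, the partner of Ubc13 in K63 chain building, had 99 and 101 counts in control and 95 and 98 in deletion livers (-0.35 ± 0.25, adjusted p = 0.453), and Ube2v1, with 8, 7, 9 and 5 counts, was not tested. Ube2k, the E2 of Trim6, was at -0.04 ± 0.16 (0.911), while Trim6 itself rose. Ube2d1, Ube2d2a and Ube2d3, which serve many RING ligases, were at 0.47 ± 0.36, 0.00 ± 0.15 and -0.11 ± 0.15 (0.480, 0.992 and 0.702). Ube2l6, the E2 of Isg15, was at 0.70 ± 0.20 (0.0984) with both deletion libraries above the controls.

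Markers of immune cells, in which several Trim genes are known to be expressed, differed between the same libraries. Of 7 macrophage markers 2 rose, where 4.41% of all genes were called higher, and 0 fell, and their sum was 174 and 228 CPM in control and 547 and 523 CPM in deletion livers. The 2 were Cybb (13.1 and 17.3 against 183 and 190 CPM) and Cd14 (3.02 and 3.85 against 51.1 and 92.1 CPM), and the other 5 had log2 fold changes from 0.46 to 0.75 that did not pass. The 5 Kupffer cell markers summed to 280 and 382 against 585 and 470 CPM, and 1 rose. The 10 lymphocyte markers summed to 10.1 and 18.9 against 28.7 and 19.3 CPM, with 0 called by edgeR (1 higher and 0 lower at an unadjusted p under 0.05). Of 5 neutrophil markers Ly6g had 0 counts in every library, and their sum was 2.28 and 4.53 against 9.12 and 6.95 CPM. The 6 bile duct markers summed to 107 and 62.9 against 1346 and 1937 CPM, and Spp1 carried the rise (50.4 and 52.5 against 1327 and 1916 CPM). Sox9 also rose (1.81 ± 0.23, edgeR adjusted p = 0.0124). The other 4, Krt7, Krt19, Epcam and Cftr, had negative log2 fold changes that did not pass, and the median of the 6 was -0.81. For each of these 4, control replicate 1 was the highest library and the groups overlap (Krt19 at 39.2 and 3.23 against 2.91 and 3.96 CPM). The part of these cells in the Trim differences was not tested.

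Members below the filter add little at this depth. Of the 18 with some counts, those with 10 or more in a group were Trim10 (13, 5, 3 and 7 counts in control replicates 1 and 2 and deletion replicates 1 and 2), Trim15 (4, 7, 6 and 5), Trim16 (13, 6, 5 and 4), Trim30c (7, 4, 8 and 5), Trim43a (2, 2, 4 and 6) and Trim43c (3, 4, 9 and 3). Without a filter all 18 were tested, and none was called. The 12 genes with 0 counts were Trim9, Trim29, Trim30e-ps1, Trim31, Trim38, Trim42, Trim50, Trim52, Trim54, Trim58, Trim61 and Trim75. A count of 0 allows up to 3 counts, or 0.154 to 0.206 CPM, and this limit covers counting error only.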

How the data were processed

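Raw counts by Ensembl gene were deposited by the authors for 4 libraries, and the labels tie each column to a sample. Per the labels' protocols, RNA was read with the QuantSeq 3' kit as single-end 75 bp reads and aligned with Bowtie2. The submitters' processing notes name mm10 and GRCm38, names of 1 assembly. What counted the reads, on which strand and by which annotation is not given in the sources used here. Liver is the labelled source, and the library protocol names hepatocyte RNA.

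Symbols came by identifier from GENCODE M21 (52029 of 56953 rows matched), as did coordinates (GRCm38, counted from 1). Genes were kept by filterByExpr (minimum count 10, total 15), scaled by TMM and tested two-sided by quasi-likelihood F in edgeR 4.0.16 (R 4.3.3) on all 14600 genes kept. Calls used a Benjamini-Hochberg adjusted p under 0.05. The SE divides the size of the log2 fold change by the root of F. After ± stands the SE of a log2 fold change or the SD of a CPM. A positive value means higher in the deletion libraries. Shares have exact Clopper-Pearson 95% intervals that cover counting error only. With 2 against 2, exact permutation cannot go below p = 0.333 and was not used. Alternatives were DESeq2 1.42.0, other scalings, no filter, a replicate term, a Y-linked covariate and leaving out each library. Replicates of a group differed beyond counting noise (chi-square per degree of freedom 38.9 in the controls and 25.3 in the deletion libraries). The test was also run on counts simulated with known fold changes, where it missed part of the changed genes. A gene that was not called may therefore still differ.

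The members and gene lists were chosen with earlier results of these data known. Named genes are all called members, the 10 largest differences not called, the 6 highest in the controls, tested members of the interferon, K63 and PHD-bromodomain lists, and members below the filter with 10 or more counts in a group. Trim2, Trim11, Trim39, Trim63 and Trim34b were named after their values were seen. A result among the listed partners is not reported here.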

Additional observations from a re-analysis of the deposited data

How the results depend on the processing

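Against 4 Trim members called higher, 0 lower and 959 genes, library sizes alone gave 8 higher and 1764 genes (88.5% of calls higher against 67.2%, with the median of all genes at 0.29 and of tested Trim members at 0.46). No filter gave 8 higher, 1 lower (Trim46) and 2768 genes, and DESeq2 gave 6 higher and 1558 genes. A replicate block gave 1 higher and 390 genes. The Y-linked covariate gave 0 higher and 65 genes, with Ube2n at -2.82 (adjusted p = 0.0643). Leaving out 1 library gave 0 to 7 higher, 0 to 1 lower, 343 to 2081 genes and member medians from 0.18 to 0.26. RLE scaling gave 4 and 960. The 4 called members were also called with RLE, library sizes alone, DESeq2, no filter and either control left out. The replicate numbers come without a stated pairing: deviations of same-numbered libraries correlated at -0.14 across genes. Under the replicate block Trim47 remained called, and Trim25, Trim56 and Trim6 had adjusted p of 0.0752, 0.0890 and 0.0744. Crossing the numbers, an alternative chosen after seeing the data, gave 7 higher and 1366 genes.

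No member that was called changed sign. Among 28 named tested members, 13 of the alternative values reversed, all of members not called. With the Y-linked covariate these were Trim21 (-0.13), Trim23 (0.053), Trim24 (-0.10), Trim33 (-0.030), Trim65 (-0.062) and Trim8 (-0.29). Library sizes alone gave Trim28 0.27 and Trim32 0.21. With 1 library left out, the values ranged from -0.024 to 0.13 for Trim24, -0.049 to 0.34 for Trim8, -0.10 to 0.050 for Trim28, -0.11 to 0.43 for Trim26 and -0.34 to 0.23 for Trim32. The causes were not tested. Among the named tested members, depth limits Trim6, Trim30b, Trim36, Trim46 and Trim62, which rest on under 100 counts per group.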
